A study of Homo sapiens with 8 samples.

Results

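The miR-320 family was followed in the human prostate cancer line PC-3 after exposure to luteolin and gefitinib. The family was chosen with earlier results of these data known, but the rule for its members used names only. Its 5 members, hsa-miR-320a, hsa-miR-320b, hsa-miR-320c, hsa-miR-320d and hsa-miR-320e, were taken by name from the 1887 human miRNAs of the array. All groups were PC-3 cells in medium with serum, and RNA was taken 24 h after addition of DMSO (the solvent that also carried the drugs), 60 µM luteolin, 60 µM gefitinib, or luteolin plus gefitinib at 60 µM each. Gefitinib inhibits the kinase of the epidermal growth factor receptor, and luteolin is a flavonoid of plants. Each of the 4 treatments had 2 one-colour arrays, labelled as biological replicates, and the 8 arrays lay on 1 slide read in 1 scan.

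Most miRNAs are cut from a long transcript by the nuclear enzyme Drosha with its partner DGCR8, leave the nucleus through Exportin 5, and are cut again by Dicer. The precursor of miR-320a takes another route: it starts at a transcription start site, carries a cap, is formed without Drosha and leaves through Exportin 1, and after Dicer its 3p arm is the one loaded into Argonaute. Mirtrons, which splicing releases from short introns, also bypass Drosha. How the precursors of miR-320b to miR-320e are made was not tested here, and they are grouped with miR-320a because their mature RNAs are nearly the same. In work on prostate cancer, miR-320 has been linked to lower Wnt/beta-catenin signalling.

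The mature RNAs are shown because their likeness bears on every value below. RefSeq (GRCh38.p14) gave the sequence of 4 of the 5 members, here 5′ to 3′ with the seed (bases 2 to 8, which lead target pairing) in capitals.
miR-320b: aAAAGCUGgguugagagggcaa
miR-320c: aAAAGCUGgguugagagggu
miR-320d: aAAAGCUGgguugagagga
miR-320e: aAAGCUGGguugagaagg

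The mature RNAs of miR-320b, miR-320c, miR-320d and miR-320e are 22, 20, 19 and 18 bases long. They share a run of 15 bases that starts at base 2 in miR-320b, miR-320c and miR-320d and at base 1 in miR-320e. That shift gives miR-320e another seed than its 3 relatives. Aligned on the run, any pair differs at 1 base of the overlap, apart from miR-320d and miR-320e, which differ at 2, and the rest of the difference is length, at the 3′ end or, in miR-320e, also at the 5′ end. With such likeness a probe may also bind its relatives, which was not tested, so the members are not independent measurements.

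In GRCh38.p14, miR-320b comes from chr1:116671787-116671808 (plus strand, MIR320B1) and from chr1:224257049-224257070 (minus strand, MIR320B2, inside the bounds of NVL). miR-320c comes from chr18:21683559-21683578 (plus strand, MIR320C1, within ABHD3) and from chr18:24321716-24321735 (plus strand, MIR320C2, within OSBPL1A). miR-320d comes from chr13:40727828-40727846 and chrX:140926172-140926190, both on the minus strand (MIR320D1 and MIR320D2) and outside other annotated genes. miR-320e comes from chr19:46709294-46709311 (minus strand, MIR320E, within PRKD2). The array reads mature RNA, so the copies of a member cannot be told apart.

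RefSeq gave a sequence for 1578 of the 1887 miRNAs on the array, and among these 1 more had the seed of miR-320b, miR-320c and miR-320d. It is miR-4429, at chr2:11540652-11540671 (minus strand, within GREB1).
miR-4429: aAAAGCUGggcugagaggcg
The scanner software detected miR-4429 on 0 of the 8 arrays.

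Values below are the total signal of a miRNA, in linear fluorescence units, scaled so that the 75th percentile over the 365 miRNAs detected on all arrays is equal between arrays. Before scaling that percentile lay between 60.5 and 92.7. The software detected all 5 members on all 8 arrays, with 30 of 30 spots well above background in each of the 40 measurements. Unscaled signals of the members ranged from 57.6 to 126, with a scanner error between 7.26% and 8.43%. As a check of the cells, 3 of 5 epithelial miRNAs (miR-200a-3p, miR-200b-3p and miR-429) were detected on all arrays, while miR-200c-3p and miR-141-3p were detected on none. None of the markers of liver, muscle, red blood cells or stroma was detected on any array. Of white blood cells, miR-142-3p was detected on 1 array and miR-142-5p and miR-223-3p on none. Of neural cells, miR-9-5p was detected on all 8 and miR-124-3p on none.

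To examine how the drugs change the family, each member was compared between treatments. Fluorescence of miR-320a was 67.3 and 75.8 in DMSO-treated cells (mean 71.5 ± 5.99, SD, n = 2), 94.7 and 110.4 in luteolin-treated cells (103 ± 11.2), 72.7 and 81.5 in gefitinib-treated cells (77.1 ± 6.20), and 85.9 and 89.9 with both drugs (87.9 ± 2.85). Both luteolin arrays lay above all other arrays, and the pair with both drugs lay between those and the gefitinib pair without overlap. The gefitinib pair overlapped the DMSO pair.

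miR-320b gave 79.7 and 87.1 with DMSO (83.4 ± 5.24), 102 and 124.4 with luteolin (113 ± 15.6), 82.4 and 91.3 with gefitinib (86.8 ± 6.27), and 92.1 and 110.0 with both (101 ± 12.6). The 4 arrays with luteolin lay above the 4 without it, as they did for miR-320a. This member has the longest mature RNA of the 4 with a sequence.

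miR-320d gave 84.4 and 91.9 with DMSO (88.1 ± 5.34), 106.1 and 131 with luteolin (119 ± 18.0), 88.0 and 99.6 with gefitinib (93.8 ± 8.21), and 99.6 and 121.9 with both (111 ± 15.8). miR-320e gave 65.0 and 71.6 with DMSO (68.3 ± 4.71), 80.8 and 103 with luteolin (91.7 ± 15.4), 68.5 and 78.4 with gefitinib (73.5 ± 7.001), and 77.5 and 94.99 with both (86.2 ± 12.4). In both, luteolin arrays lay above the DMSO and gefitinib arrays, and the lower array with both drugs did not exceed the higher gefitinib array. The shift of the seed in miR-320e went with no other order of the treatments.

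miR-320c gave 61.3 and 66.1 with DMSO (63.7 ± 3.41), 77.8 and 90.9 with luteolin (84.4 ± 9.21), 79.1 and 88.8 with gefitinib (84.0 ± 6.84), and 78.3 and 97.8 with both (88.0 ± 13.8). All 6 arrays with a drug lay above both DMSO arrays, and the 3 drug groups overlapped each other. For miR-320c alone among the members the gefitinib pair lay apart from the DMSO pair.

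**Figure D1:**
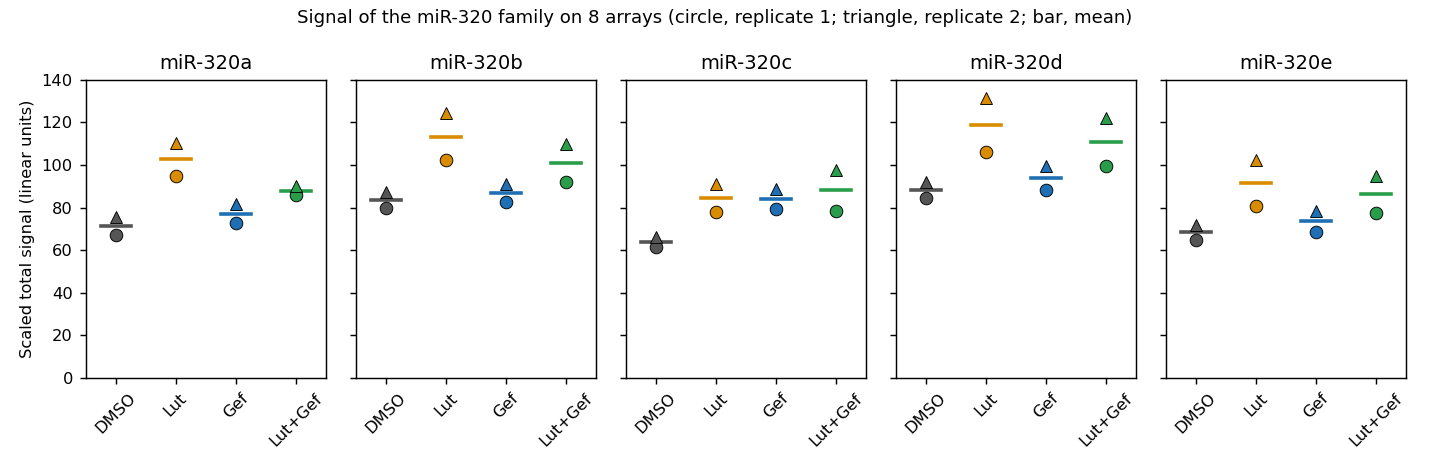
Scaled total signal (linear fluorescence units, axis from 0) of the 5 members on each of the 8 arrays, with circles for replicate 1, triangles for replicate 2 and a bar for the mean of the pair. In every member both luteolin arrays lie above both DMSO arrays, and in miR-320c the gefitinib arrays do so as well. Replicate 2 lies above replicate 1 in every group and member.

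With luteolin the 5 members read higher than in DMSO-treated cells, by 1.32-fold (miR-320c) to 1.43-fold (miR-320a). In all 5 both luteolin arrays lay above both DMSO arrays, a pattern that 9.17% of the 480 miRNAs tested showed. No member passed the limma test: 0 of 5 were called at an adjusted p under 0.05, against 2.08% of all miRNAs tested, while 2 members and 41 of the 480 had an unadjusted p below 0.05. The nearest to a call was miR-320a, at a log2 fold change of 0.52 (SE 0.15, limma adjusted p = 0.316). Its 95% interval ran from 1.10-fold to 1.86-fold. The other members had log2 fold changes of 0.40 to 0.44 and limma adjusted p up to 0.593. Without luteolin replicate 2, miR-320d fell to 0.27 and miR-320e to 0.24. The sizes also moved with the scaling. The 5 members read 0.62 to 0.74 when scaled to spike-in probes and 0.25 to 0.35 with normexp background correction before quantile normalization. The median over the 480 miRNAs was -0.10, so the family median of 0.42 lay 0.53 above it. With 2 arrays a group, p-values measure the spread between these arrays only, and fewer cells with a miRNA and less of it per cell cannot be told apart.

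With gefitinib alone, 4 members had log2 fold changes of 0.06 (miR-320b) to 0.11 (miR-320a). The size of these rests on the scaling. The same 4 read 0.42 to 0.48 without scaling, 0.42 to 0.47 with control probes and 0.55 to 0.60 with spike-in probes. With quantile normalization they read 0.05 to 0.15, and 0.02 to 0.08 when normexp came before it. miR-320c differed in size, at 0.40 (SE 0.17), or 1.32-fold with a 95% interval from 0.975-fold to 1.78-fold. It read 0.76 without scaling, 0.76 with control probes and 0.89 with spike-in probes. With quantile normalization it read 0.39, and 0.32 when normexp came before it. None was called (0 of 5; limma adjusted p from 0.251 to 0.877), against 12.1% of all miRNAs tested, and 0 members but 114 of the 480 had an unadjusted p below 0.05. The gefitinib pair lay above the DMSO pair without overlap in miR-320c only, against 21.5% of all miRNAs tested. For the other 4 members the 95% intervals extended from 0.773-fold to 1.49-fold, so on that scale modest changes in either direction could not be detected here. Without gefitinib replicate 2, miR-320a read 0.026 and miR-320e 0.0065 on the log2 scale. Without DMSO replicate 2 they read 0.19 and 0.17. The 2 gefitinib arrays differed by 1.11-fold to 1.14-fold in the members. Over all miRNAs detected on every array their squared difference was 1.03 times that of the scanner error, against 2.45 to 9.93 in the other groups, so a fit with the gefitinib pair averaged to 1 sample was also run, and it called 0 members and 2.92% of all miRNAs tested.

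With both drugs the members read 1.21-fold (miR-320b) to 1.37-fold (miR-320c) above DMSO. In all 5 the arrays did not overlap, which held for 19.6% of the miRNAs tested in that direction. No member was called (0 of 5; limma adjusted p from 0.177 to 0.408), against 12.1% of all miRNAs tested, while 1 member (miR-320c) and 25.8% of the 480 had an unadjusted p below 0.05. The log2 fold change of miR-320c was 0.46 (SE 0.17), and those of its relatives ranged from 0.27 to 0.33. Without replicate 2 of both drugs, miR-320b, miR-320c, miR-320d and miR-320e fell to 0.14, 0.30, 0.18 and 0.18. The median over all miRNAs tested was -0.16. These counts depend on the scaling: with signals scaled to human small-RNA control probes, 5 of 5 members were called for both drugs, against 20.6% of all miRNAs tested, and miR-320c also for gefitinib, against 14.6%. The sizes for both drugs moved too. Log2 fold changes were 0.70 to 0.89 with control probes and 1.72 to 1.90 with the percentile over all miRNAs. They were 0.16 to 0.29 with normexp background correction before quantile normalization.

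**Figure D2:**
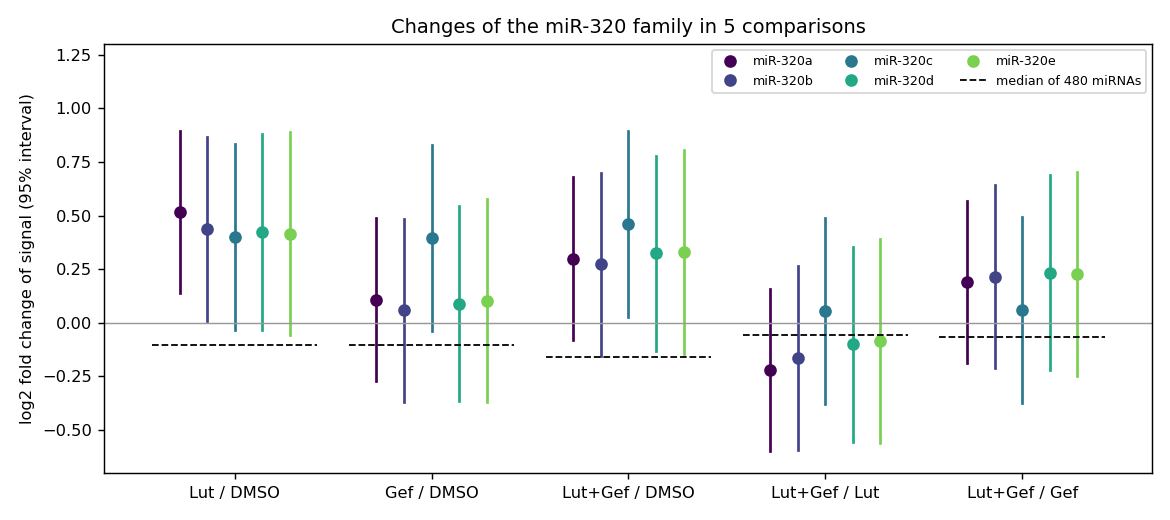
Log2 fold change of each member (points) with its 95% interval from limma (lines) in 5 comparisons of treatments, n = 2 arrays a group, and dashed lines for the median of the 480 miRNAs tested. Against DMSO every point lies above 0 and above the dashed line. Most intervals include 0.

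The addition of gefitinib to luteolin was compared next. Relative to luteolin alone, cells given both drugs read lower in 4 members, at log2 fold changes of -0.22 (miR-320a), -0.16 (miR-320b), -0.10 (miR-320d) and -0.09 (miR-320e), and 0.06 in miR-320c. None was called (0 of 5; limma adjusted p from 0.569 to 1), against 1.88% of all miRNAs tested, and 0 members but 74 of the 480 had an unadjusted p below 0.05. Luteolin arrays lay above the arrays with both drugs without overlap in miR-320a only, against 17.9% of all. The sign of these small differences turned for those 4 members when scaled to control probes or to the percentile over all miRNAs, and for miR-320c without scaling.

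Relative to gefitinib alone, both drugs read higher by 0.06 (miR-320c) to 0.23 (miR-320d) on the log2 scale. For miR-320b, miR-320d and miR-320e the difference was smaller, but above 0, without replicate 2 of both drugs. No member was called (0 of 5; limma adjusted p from 0.737 to 0.992), against 4.58% of all miRNAs tested, and 0 members but 60 of the 480 had an unadjusted p below 0.05. Arrays did not overlap in miR-320a and miR-320b, against 18.8% of all in that direction. Without scaling all 5 signs turned, to values between -0.10 and -0.28, and they also turned with spike-in probes. Set directly against gefitinib, the luteolin pair was higher without overlap in 4 members, the exception being miR-320c, against 19.0% of all. Without scaling this held for miR-320a and miR-320b alone, against 8.54% of all, and in miR-320c the gefitinib pair lay above the luteolin pair, as in 36.5% of all.

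The interaction, which is the log2 effect of both drugs minus the summed log2 effects of each alone, was below 0 in all 5 members, and above 0 in all 5 when the percentile was taken over all miRNAs of the array. It ranged from -0.34 (miR-320c, SE 0.25) to -0.19 (miR-320e, SE 0.27). Over the alternatives run, the lowest values were -0.84 for miR-320a, -0.73 for miR-320b, -0.85 for miR-320c, -0.70 for miR-320d and -0.70 for miR-320e. For miR-320c the sum of the single effects would be the sum of 0.40 and 0.40, and the value with both drugs was 0.46. None was called (0 of 5; limma adjusted p from 0.823 to 0.986), against 3.33% of all miRNAs tested, and 0 members but 49 of the 480 had an unadjusted p below 0.05.

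Pooling the 4 arrays with a drug against the 4 without it gave more precision. For luteolin the members were higher by 1.17-fold (miR-320c) to 1.28-fold (miR-320a). In miR-320a and miR-320b all 4 arrays with luteolin lay above all 4 without, as in 1.67% of the miRNAs tested, and a two-sided exact permutation test gave p = 0.0286 for each, the smallest that 70 splits allow. It gave 0.0571 for miR-320d and for miR-320e and 0.171 for miR-320c, with no adjustment over the 10 tests of both drugs. Without scaling the exact p was 0.2 for miR-320a and for miR-320b, so the separation rests on the scaling. Without replicate 2 of both drugs, the log2 difference of miR-320c fell from 0.23 to 0.15. Over all the alternatives run, this difference ran from 0.11 to 0.86 in miR-320c and from 0.22 to 0.98 in miR-320a. In the limma fit 3 members had an unadjusted p below 0.05, as had 70 of the 480, but after adjustment over all miRNAs 0 of 5 were called (limma adjusted p from 0.196 to 0.492), against 6.46%.

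For gefitinib pooled in the same way, miR-320c was 1.17-fold higher with the drug (95% interval 0.946-fold to 1.45-fold, exact permutation p = 0.2). The other 4 members lay between 0.963-fold and 1.01-fold, with 95% intervals between 0.781-fold and 1.27-fold and exact permutation p from 0.743 to 1. No member was called by limma (0 of 5), against 16.7% of all miRNAs tested, and 0 members but 128 of the 480 had an unadjusted p below 0.05. With control probes miR-320c was called (log2 difference 0.57, limma adjusted p = 0.0247), against 21.5% of all, and the signs of miR-320a, miR-320b and miR-320d turned there as they did without scaling, with spike-in probes and with the percentile over all miRNAs.

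The choice of scale bears on these values, because gefitinib arrays were brighter as a whole. Without scaling, all 6 drug arrays lay above both DMSO arrays in all 5 members, as in 6.25% of the miRNAs tested, and with scaling this held for miR-320c alone, against 4.17%. Dropping the scaling moved the median of all miRNAs by 0.13 for luteolin, 0.36 for gefitinib and 0.03 for both drugs on the log2 scale. The family median lay 0.53 above that median for luteolin, 0.21 for gefitinib and 0.48 for both drugs. A factor per array shifts all miRNAs alike and leaves these distances nearly fixed by construction, whereas they were 0.40, 0.19 and 0.35 under quantile normalization and 0.30, 0.07 and 0.20 when normexp background correction came before it. Normexp was run with an offset of 50, which makes fold changes smaller at signals as low as those of the members.

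The members were then compared with each other. Over the 8 arrays, the log2 signals of miR-320a, miR-320b, miR-320d and miR-320e correlated with Pearson r from 0.925 to 0.998 in their 6 pairs, whereas the 4 pairs with miR-320c gave r from 0.694 to 0.818. These coefficients describe arrays that share a slide, a scaling and, between members, nearly the same sequence. After scaling, replicate 2 was brighter than replicate 1 in every group and member, by 1.05-fold to 1.27-fold, which enters all of them. Before scaling it was the dimmer in all 5 members with both drugs (69.5 against 95.5 for miR-320a) and the brighter in the other groups.

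A ratio of 2 members within an array needs no scaling. The ratio of miR-320c to miR-320b was 0.769 and 0.759 with DMSO and 0.761 and 0.731 with luteolin, but 0.960 and 0.973 with gefitinib and 0.850 and 0.889 with both drugs. The 4 arrays with gefitinib lay above the 4 without it and the gefitinib-only pair was the highest. Against miR-320d the ratio was 0.786 to 0.899 with gefitinib and 0.691 to 0.734 without, and against miR-320e it was 1.01 to 1.15 with and 0.886 to 0.963 without. Against miR-320a the ranges were closest, since the array of replicate 1 with both drugs equalled the upper DMSO array at 0.911. Relative to the mean of its 4 relatives, miR-320c was 1.19-fold higher with gefitinib than without, and the ratio spanned 0.885 to 1.02 with the drug and 0.779 to 0.833 without. The same ratio for miR-320b, whose relatives include miR-320c, separated the other way, at 1.05 to 1.09 with gefitinib and 1.15 to 1.16 without. In the other members the ranges overlapped. These ratios were chosen after the values were seen, so they are given with no test. How often other miRNAs separate in this way was not counted. The ratios show unequal change within the family rather than which member changed.

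**Figure D3:**
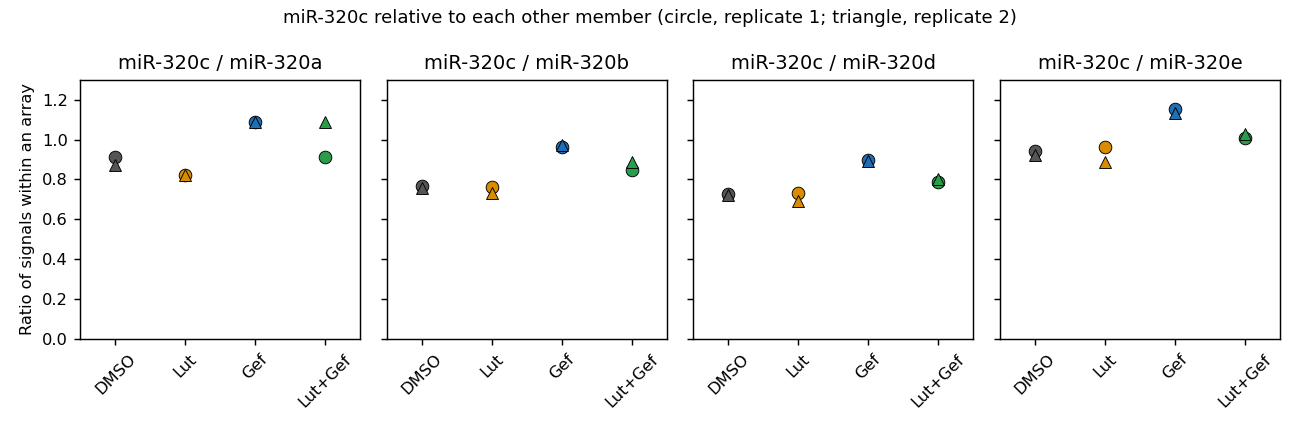
Ratio of the miR-320c signal to that of each other member within an array (no unit, axis from 0), with circles for replicate 1 and triangles for replicate 2. The 2 gefitinib arrays and the 2 arrays with both drugs lie above the DMSO and luteolin arrays against miR-320b, miR-320d and miR-320e. Against miR-320a, 1 array with both drugs lies at the level of a DMSO array (0.911).

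Each member is read by 2 probes with 15 spots each, which allowed a look inside the total signal. In miR-320a, miR-320b, miR-320d and miR-320e the brighter probe read 1.07-fold to 1.08-fold and the dimmer 0.995-fold to 1.08-fold the DMSO level under gefitinib. The dimmer probe of miR-320b, relative to the brighter, read 0.525 and 0.559 on the arrays of replicate 1 with gefitinib and 0.575 and 0.572 on those without, and in replicate 2 it read 0.520 and 0.517 with and 0.545 and 0.541 without. Within each replicate this ratio was thus lower with gefitinib, the direction opposite to that of miR-320c. Over all arrays its ranges overlapped, at 0.517 to 0.559 with gefitinib and 0.541 to 0.575 without. In miR-320c the dimmer probe read 1.63-fold with gefitinib and 1.51-fold with both drugs, and the brighter 1.24-fold and 1.34-fold. With luteolin alone they read 1.26-fold and 1.34-fold. The signal of the dimmer probe was 13.6 and 12.3 with DMSO, 16.3 and 16.4 with luteolin, 20.8 and 21.6 with gefitinib, and 18.0 and 21.2 with both drugs. Its share relative to the brighter probe was 0.277 to 0.356 on arrays with gefitinib and 0.220 to 0.286 on those without, so these ranges overlapped. Within replicate 1 and within replicate 2 both arrays with gefitinib lay above both without. The labels tie the replicate numbers to no shared day or batch, so comparing arrays within a replicate has no stated basis. The 2 probes of miR-320c therefore differ in the size of the gefitinib difference, and the cause was not tested.

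**Figure D4:**
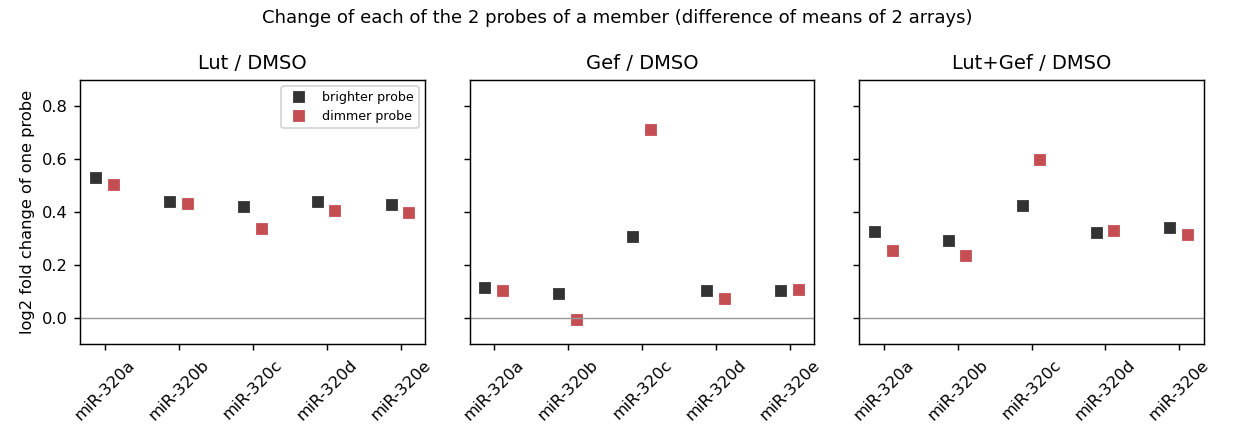
Log2 fold change against DMSO of the brighter (dark) and the dimmer (red) probe of each member, each the difference between means of 2 arrays, by treatment. The probes lie farthest apart in miR-320c with gefitinib (1.63-fold and 1.24-fold), and those of miR-320c with both drugs read 1.51-fold and 1.34-fold.

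Other miRNAs of unusual origin were set beside the family. The list held miR-484 (from a capped precursor at a transcription start site, like miR-320a) and miRNAs within short introns listed as mirtrons. Among the latter, miR-1225 and miR-1228 have been described as simtrons, which Drosha cuts without splicing. Of the 18 names on the array, 10 were never detected and 6 could be tested. miR-484 gave 9.44 and 10.2 with DMSO, 14.03 and 16.4 with luteolin, 7.31 and 7.40 with gefitinib, and 11.4 and 11.03 with both drugs. The gefitinib pair lay below the DMSO pair, as in 36% of the miRNAs tested, and both luteolin arrays lay above all others. Pooled over 4 arrays against 4, miR-484 was called higher with luteolin (log2 difference 0.62, SE 0.10, limma adjusted p = 0.0222) and lower with gefitinib (-0.43, SE 0.10, limma adjusted p = 0.0358). It was not called in the single comparison with DMSO, at 0.63 for luteolin (limma adjusted p = 0.131) and -0.42 for gefitinib (limma adjusted p = 0.133). For gefitinib against DMSO, the median of all miRNAs moved by 0.36 without scaling, 0.36 with control probes and 0.49 with spike-in probes. A factor per array moves miR-484 by about as much, so its lower reading with gefitinib rests on the scaling. The difference between miR-484 and the miR-320 members was not tested.

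The listed mirtron miR-1226-5p was detected on both arrays with both drugs and on no other array. With both drugs its signal was at least 2.46-fold the DMSO level, set against the lowest signal detected on each DMSO array. It entered the test only through the 2 arrays where it was detected, so its calls follow from that filter, and at the floor of 6 arrays its standard error is too small. The same 2 arrays gave a limma call against DMSO, in the comparisons of both drugs with luteolin and with gefitinib, in the interaction and in both pooled comparisons. The other 4 tested, miR-1224-5p, miR-1225-5p, miR-1228-3p and miR-1234-3p, were not called in any comparison. The median log2 fold change of the 5 miRNAs other than miR-1226-5p, all detected on every array, was -0.02 for luteolin, -0.20 for gefitinib and -0.14 for both drugs. Without miR-1225-5p and miR-1228-3p it was 0.19, -0.24 and -0.14, and both ways of trimming the list were chosen after seeing the data.

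In 3 families made by Drosha, 0 of 20 members were called in each comparison, where the share of all miRNAs tested ranged from 1.88% to 16.7%. Against DMSO, the median log2 fold changes for luteolin, gefitinib and both drugs were 0.10, 0.05 and 0.10 in 9 guide arms of the let-7 family, which restrain growth genes such as RAS. They were -0.19, -0.44 and -0.15 in 5 members with the miR-17 seed, known from a growth-promoting cluster, and -0.12, -0.09 and -0.09 in 6 members of the miR-15/16 family, which targets cell cycle genes and BCL2. The corresponding medians of the miR-320 family were 0.42, 0.10 and 0.32. These are descriptions of lists, and no difference between lists was tested.

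**Figure D5:**
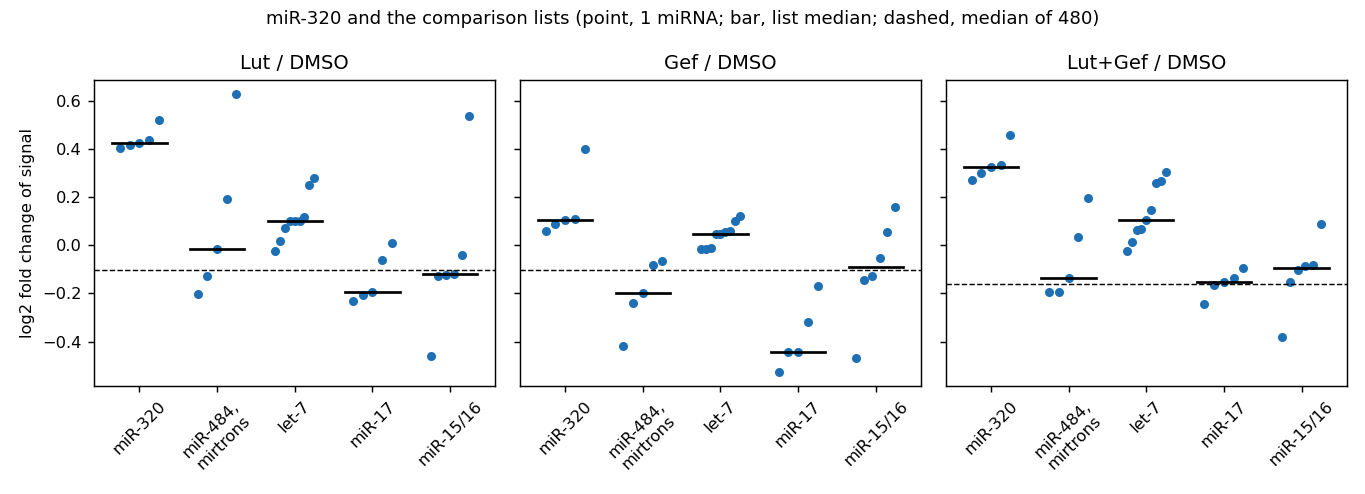
Log2 fold change against DMSO of the 5 miR-320 members, 5 of the list with miR-484 and mirtrons (without miR-1226-5p), 9 let-7, 5 miR-17 and 6 miR-15/16 family members (points), with a bar for the list median and a dashed line for the median of the 480 miRNAs tested. The miR-320 points lie between 0.40 and 0.52 for luteolin. For both drugs they lie between 0.27 and 0.46.

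Among the 360 miRNAs outside the family detected on all arrays, the highest Pearson r with the mean log2 signal of the 5 members over the 8 arrays was that of miR-186-5p (0.957). Its signal was 15.5 and 17.5 with DMSO, 18.1 and 20.3 with luteolin, 16.4 and 18.2 with gefitinib, and 17.5 and 20.5 with both drugs, so replicate 2 was again the brighter on the scaled values. Next came let-7b-5p (0.878), let-7c (0.836), miR-3152-3p (0.813) and miR-30d-5p (0.797). Of these 5, miR-3152-3p was called higher with both drugs than with DMSO (log2 fold change 1.45, limma adjusted p = 0.0339), and the rest were called in no comparison. These coefficients describe 8 arrays that share a scaling, and they say nothing of shared control.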

How the data were processed

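RNA of PC-3 cells was measured on 8 one-colour miRNA arrays, 2 for each of 4 treatments named in the labels. The authors labelled 100 ng of total RNA with Cy3 and read each array with Feature Extraction 10.7.3.1. The deposited intensity values are linear, background-subtracted and not scaled between arrays. The series table, with those intensities spot by spot, served as an alternative. The methods state ratios to DMSO, a Student's test and a minimum fold change.

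Here the total signal of a miRNA, summed over its probes, was scaled to the 75th percentile of each array over the 365 miRNAs detected on all 8, raised to a floor of 0.609 and taken to log2. To be tested, a miRNA had to be detected in both replicates of some group, and the 480 that were entered 1 fit with limma 3.58.1 in R 4.3.3, with 4 groups, 4 residual and 1.66 prior degrees of freedom. P-values are two-sided and were Benjamini-Hochberg adjusted over the 480, with a call under 0.05. Exact permutation tests used SciPy 1.17.1. Standard errors are too small for miRNAs with both values of a group at the floor, which no miR-320 member had. Precision is limited by the number of arrays.

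The family, its members by name, and the comparison lists were chosen with earlier results of these data known. Named beside the members were those sharing a seed, the 5 with the closest pattern, and, from the lists, those called and the extremes. The array design names hg19, and coordinates and sequences are from RefSeq, GRCh38.p14, by exact name. Alternatives changed the scaling, the summary of spots, background correction, filter, floor, test and replicates.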

Additional observations from a re-analysis of the deposited data

How the results depend on the processing

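No member was called in any comparison with no scaling, quantile normalization, spike-in scaling, another summary of spots, another filter or floor, the gefitinib arrays averaged, or any array left out. Scaling to human small-RNA control probes called 1 member for gefitinib against DMSO, 5 for both drugs against DMSO and 1 for pooled gefitinib, and 70, 99 and 103 of the 480 miRNAs. Normexp with quantile normalization called 1 (miR-320c) for gefitinib and 1 for both drugs against DMSO, and 73 and 79 of the 480, and the methods' t-test without adjustment called 4 and 30 of the 480 for pooled luteolin, 0 members after adjustment. That test was run without the minimum fold change that the methods add, a doubling, which no member reached at the scaling used in the report. The cause was not tested. Taking the percentile over all miRNAs sets the scale on barely detected signals, and moved the median of all miRNAs by 1.36 for both drugs against DMSO. Deviations of same-numbered arrays from their group means correlated at 0.91 between DMSO and luteolin, 0.41 between DMSO and both drugs and 0.46 between luteolin and both drugs, but at -0.13, -0.09 and 0.07 in the pairs with gefitinib, and the labels tie the numbers to no shared day or batch. With the replicate number as a block, 0 members were called. The lowest limma adjusted p was then 0.074 for miR-320c with both drugs against DMSO, and the calls over all miRNAs for luteolin against DMSO went from 10 to 9.

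For both drugs against luteolin, the percentile over all miRNAs gave 1.13, 1.18, 1.25 and 1.26 for miR-320a, miR-320b, miR-320d and miR-320e, and control probes gave 0.10, 0.16, 0.22 and 0.23. For miR-320c the same difference was -0.068 without scaling, -0.0461 with the brightest probe, -0.0110 with the mean processed signal and -0.0106 with the series table. For both drugs against gefitinib, miR-320a to miR-320e gave -0.15, -0.12, -0.28, -0.10 and -0.11 without scaling and -0.0977, -0.0739, -0.227, -0.0544 and -0.0617 with spike-in probes, and miR-320c gave -0.0278 with normexp. The interaction was 0.72, 0.83, 0.71, 0.86 and 0.86 with the percentile over all miRNAs.

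For pooled gefitinib, miR-320a, miR-320b and miR-320d gave 0.0657, 0.0671 and 0.115 without scaling, 0.77, 0.77 and 0.82 with the percentile over all miRNAs, 0.29, 0.29 and 0.34 with control probes, and 0.18, 0.18 and 0.23 with spike-in probes, and miR-320d gave 0.0695 with quantile normalization. miR-320e gave -0.0256 with the brightest probe, -0.0508 with the mean processed signal, -0.0505 with the series table and -0.0204 with normexp.

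Leaving out 1 array in turn, the ranges that crossed 0 were as follows. For gefitinib against DMSO, miR-320b ran from -0.0164 to 0.131 (below 0 without DMSO replicate 1 or gefitinib replicate 2) and miR-320d from -0.000221 to 0.18 (gefitinib replicate 2). For both drugs against luteolin, miR-320c ran from -0.10 to 0.22 (below 0 without luteolin replicate 1 or replicate 2 of both drugs), miR-320d from -0.255 to 0.0546 and miR-320e from -0.257 to 0.0867 (above 0 without luteolin replicate 2 or replicate 1 of both drugs). For both drugs against gefitinib, miR-320c ran from -0.10 to 0.22 (below 0 without gefitinib replicate 1 or replicate 2 of both drugs). For pooled gefitinib, miR-320a ran from -0.111 to 0.000537, miR-320b from -0.124 to 0.0169, miR-320d from -0.083 to 0.0719 and miR-320e from -0.0765 to 0.0953, with each array deciding the sign of at least 1 of them. Where a group kept 1 array, that array was assumed to vary like the other groups.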
